A study of Mus musculus with 58 samples.

Results

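The lungs of mice given the highest dose of benz(a)anthracene (BaA) were compared with those of mice given the lowest dose, with the vehicle-treated animals left out of the fit. The result is thus a difference between exposed groups, whose arrays also differed in position on the slide. The arrays were chosen by their titles alone, 5 lungs of the D3 group (80 mg/kg bw/day) and 5 of the D1 group (20 mg/kg bw/day), together 10 of the 58 arrays of the series. The animals of both groups were male Muta™Mouse, a transgenic strain carrying a bacterial reporter gene in every cell, about 10 weeks old and housed one to a cage. BaA in olive oil was given daily by gavage for 28 days and the lungs were taken 72 h after the last dose. RNA came from a random section of each lung, so the mix of airway, alveoli, pleura and blood could differ between sections, and in such bulk RNA fewer cells of a type and less RNA per cell cannot be told apart. The labels number the mice, 6 to 10 in D1 and 16 to 20 in D3. D0 (olive oil alone) and D2 (40 mg/kg bw/day) lungs, 5 of each, are given below only as context.

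BaA is a polycyclic aromatic hydrocarbon. Such compounds bind the aryl hydrocarbon receptor (AhR), which induces the cytochromes Cyp1a1 and Cyp1b1, and these oxidise the hydrocarbon to diol epoxides that form bulky DNA adducts. Adducts of this kind are removed by nucleotide excision repair, and the p53 pathway answers the damage. The lung is a target of polycyclic aromatic hydrocarbons and also has a circadian clock of its own. The PER, CRY and REV-ERB proteins of that clock repress the activators ARNTL and CLOCK, while output factors such as DBP and their competitor NFIL3 act on a shared DNA element, the D-box.

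Each value is a log2 ratio of lung RNA (Cy5) to a common reference RNA from 11 mouse cell lines (Cy3). A ratio therefore tells the level of a gene in one lung relative to another, and the levels of different genes are not compared. Of 28874 probes tested, 199 were called (0.689%), which required a limma p adjusted by Benjamini-Hochberg of 0.05 or less together with a 1.5-fold or larger change, 163 of them higher at D3 (0.565%) and 36 lower (0.125%). An unadjusted p under 0.05 was found for 5296 probes, where 1444 would arise by chance. Taking the brightest probe of each gene, 119 of 14157 genes were called (0.841%), 102 higher (0.72%) by 0.59 to 1.74 on the log2 scale and 17 lower (0.12%). The median difference of all genes was 0.03. The D1 and D3 values did not overlap for 888 genes (6.27%), among them 113 of the 119 called. A further 60 called probes matched no gene symbol. The authors' own log2 table gave 196 calls, 178 of them shared.

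Between lungs of one dose, r over all tested probes was 0.944 to 0.975 for D1 and 0.959 to 0.98 for D3. Surfactant protein C, the defining product of alveolar type 2 cells, had a log2 ratio of 7.53 in these lungs against -0.04 in liver, and the club cell secretoglobin Scgb1a1 8.53 against 0.03. The lung arrays lay on 3 slides that each held both groups. On slide 3 (D1 mice 7 and 10, D3 mice 18 and 20) 46.2 to 49.6% of the spots were well above background, against 53.0 to 55.2% on the others. With the slide as a block 272 probes were called, 181 of them shared. Each of the 119 called genes differed in the same direction within all 3 slides. That count uses the same arrays as the calls. For the 113 called genes whose groups did not overlap the direction was fixed beforehand, so it is no added result. On every slide the D1 arrays sat in column 2 and the D3 arrays in column 4, so array position and dose cannot be told apart. With arrays centred on their median instead of loess-normalised, 0 probes were called (419 at an unadjusted p under 0.05). Blocking the slide as well, a setting chosen after the data were seen, gave 199 (167 higher and 32 lower). These were not all the same calls, since 5 of the 31 called named genes were lost there. The reference channel by itself gave 4 calls, of which 1 was also among the 199.

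Heat shock genes were among the decreases. Hspa1a, the stress-inducible HSP70 chaperone, and Dnaja1, an HSP40 co-chaperone of HSP70, were both lower at D3. Their promoters are printed because both hold a heat shock element, the binding letters of heat shock factor. The sequences are those of RefSeq on GRCm38.p6, read toward the gene from 250 bases before its start, with capitals marking the element, searched as GAANNTTC or TTCNNGAA (each reads the same on both strands). Hspa1a lies on the minus strand (chr17:34972157-34972406) and Dnaja1 on the plus strand (chr4:40722218-40722467, the first of 3 annotated starts, the other windows holding no match).
Hspa1a: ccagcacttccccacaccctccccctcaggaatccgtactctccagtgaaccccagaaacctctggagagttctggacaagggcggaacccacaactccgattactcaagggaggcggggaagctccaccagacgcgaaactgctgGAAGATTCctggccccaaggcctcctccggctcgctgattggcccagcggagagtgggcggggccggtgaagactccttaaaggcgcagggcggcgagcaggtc
Dnaja1: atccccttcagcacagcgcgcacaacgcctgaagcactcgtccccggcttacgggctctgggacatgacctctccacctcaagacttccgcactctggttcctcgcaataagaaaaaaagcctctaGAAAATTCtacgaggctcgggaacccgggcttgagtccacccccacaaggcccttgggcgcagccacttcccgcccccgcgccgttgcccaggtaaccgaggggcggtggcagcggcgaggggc
Such an element stood in 12.8% of 32817 promoter windows of this length. Counted by gene, with a match in any of its windows, it stood in 9 of the 19 heat shock and chaperone genes of the list below that had a window. These shares differ in unit. A match describes the letters only.

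Hspa1a had log2 ratios of 1.85, 1.16, 0.70, 1.64 and 0.19 in D1 mice 6 to 10 and of -0.20, -0.17, -0.32, -0.30 and -0.35 in D3 mice 16 to 20. The D3 lungs were nearly alike and all lay below the lowest D1 lung. Hspa1a was 2.59-fold lower, a log2 difference of -1.37 (SE 0.26, limma adjusted p = 0.03). Dnaja1 read 1.04, 0.76, 0.55, 0.94 and 0.24 at D1 and -0.24, -0.20, -0.20, -0.20 and -0.25 at D3. Again the groups did not overlap, and D1 mouse 10 came closest to the D3 level for both genes. The difference of Dnaja1 was -0.92 (SE 0.13, adjusted p = 0.0141, limma), while its second probe gave -0.43 (adjusted p = 0.0855). Hspa8, the constitutive HSC70, read 0.69, 0.74, 0.50, 0.71 and 0.36 at D1 and -0.09, 0.08, 0.10, -0.04 and 0.15 at D3. Its brightest probe stayed just under the fold threshold at -0.56 (SE 0.09, limma adjusted p = 0.0176), and its other probes were called at -0.61 and -0.66. The reference signal of the brightest Hspa8 probe was 0.33 higher on the D3 arrays (limma adjusted p = 0.0705), a shift in the denominator of the ratio whose part was not tested.

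The other members of the heat shock list lay between -0.56 and 0.23. Of 24 tested members 2 were called, both lower (0.12% of all genes were called lower), and the median difference was -0.05 against 0.03 over all genes. Hsph1 (HSP110) differed by -0.43 with overlapping groups (SE 0.31, limma adjusted p = 0.497) and Dnajb1 by -0.29 (SE 0.09, adjusted p = 0.129). Hspb1 and the HSP90 gene Hsp90ab1 were at 0.23 and 0.21. Leaving out D1 mouse 7 or 9 or D3 mouse 16, 17, 18 or 19 ended the call of Hspa1a (adjusted p up to 0.0787, limma), whereas Dnaja1 kept its call without any one of the 10 mice. Mean levels of Hspa1a over the doses were 2.68 (D0), 1.11 (D1), 0.05 (D2) and -0.27 (D3), and those of Dnaja1 were 1.52, 0.71, 0.03 and -0.22.

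**Figure D1:**
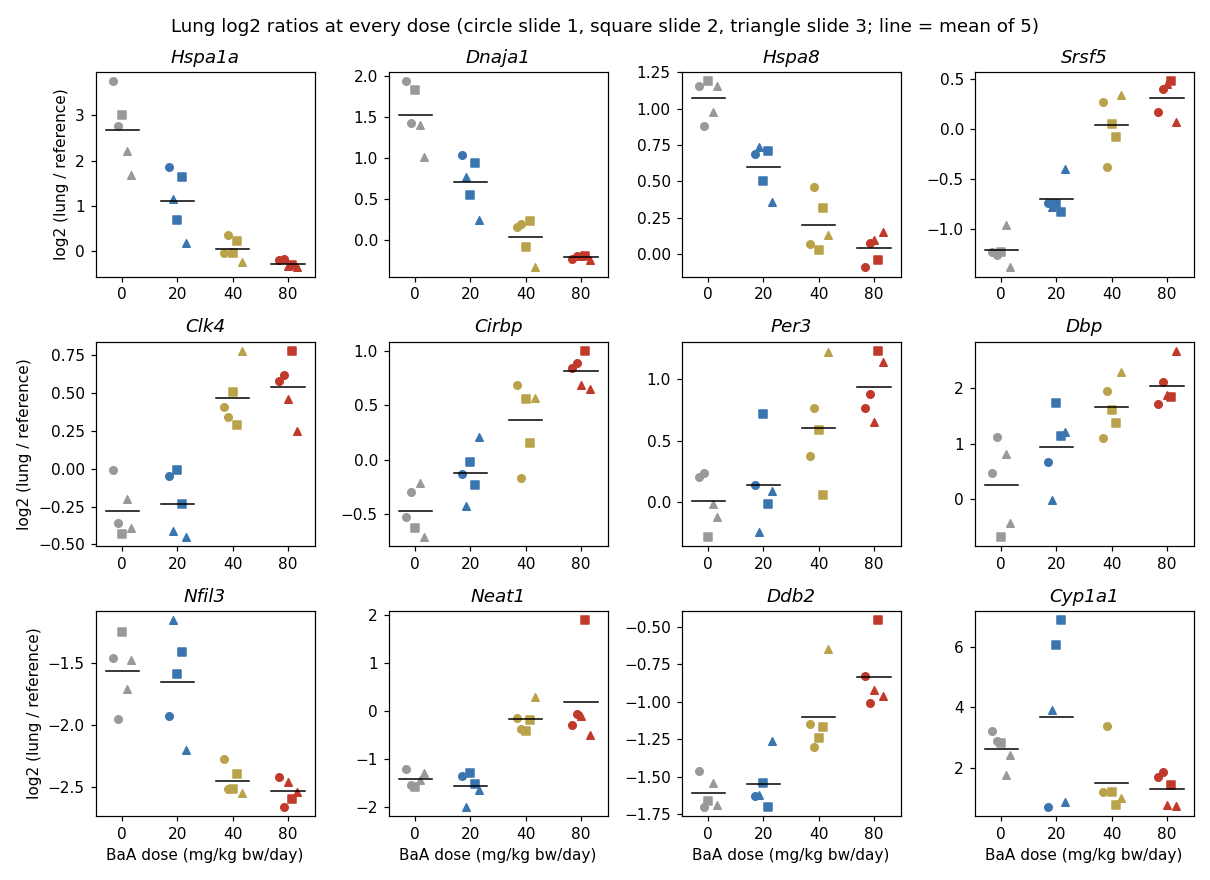
Log2 ratio of lung to reference RNA (vertical) in each of 20 lungs by daily BaA dose in mg/kg bw (horizontal) for 12 genes, with the marker shape giving the slide and the line the mean of 5 lungs. Hspa1a and Dnaja1 step down and Srsf5 and Cirbp step up between 20 and 80 mg/kg without overlap, while Cyp1a1 is spread from 0.73 to 6.87 at 20 mg/kg.

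The SR factor and nuclear RNA processing list had the most tested genes and also, by number, the most calls of the 33 main lists. These leave out the mesothelium and motile cilium lists, which were drawn up after the values were seen. The 33 lists were themselves written with earlier results of these data known, so their shares of called genes are a description. Of 25 tested SR factors and nuclear RNA processing genes, 5 rose and none fell (20% called against 0.841% of all genes), with a median of 0.19. Srsf5, an SR protein that selects splice sites, read -0.74, -0.78, -0.75, -0.83 and -0.40 at D1 and 0.17, 0.40, 0.45, 0.48 and 0.07 at D3. The groups did not overlap, and Srsf5 rose 2.02-fold, a log2 difference of 1.02 (SE 0.11, limma adjusted p = 0.00389). Cirbp, a cold-inducible RNA-binding protein, read -0.13, -0.43, -0.02, -0.23 and 0.21 at D1 and 0.84, 0.89, 0.69, 1.00 and 0.65 at D3 (difference 0.94, SE 0.12, limma adjusted p = 0.00976). Rbm3, the other cold-inducible member, was at -0.05 (SE 0.09, adjusted p = 0.811, limma).

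Clk1 and Clk4, kinases that phosphorylate SR proteins, rose by 0.80 and 0.77 (limma adjusted p = 0.0197 and 0.0149). Clk4 lay between -0.45 and -0.01 in the D1 lungs and between 0.25 and 0.78 in the D3 lungs, and both of its probes were called. Clk2 and Clk3 were at 0.49 and 0.19 (limma adjusted p = 0.129 and 0.556). Ddx5, an RNA helicase of splicing, rose by 0.61 (SE 0.09, limma adjusted p = 0.0145), although its 3 probes ranged from 0.11 to 0.87. Srsf3 and Srsf2, SR proteins of the same family as Srsf5, were at -0.37 and -0.21 (limma adjusted p = 0.0676 and 0.263). Outside the list, Hnrnpdl, an RNA-binding hnRNP, rose by 1.07 (SE 0.13, limma adjusted p = 0.00976), from between -2.16 and -1.74 at D1 to between -1.09 and -0.42 at D3. Srsf5, Cirbp, Clk4 and Hnrnpdl kept their calls without any one mouse. Clk1 lost its call without D1 mouse 9 (limma adjusted p = 0.0576), and Ddx5 was under the fold threshold without D1 mouse 7 (0.58) or D3 mouse 19 (0.55).

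Neat1, the long RNA that scaffolds nuclear paraspeckles, showed the largest increase of any called gene. Its log2 ratios were -1.36, -1.99, -1.29, -1.53 and -1.64 at D1 and -0.30, -0.07, -0.11, 1.88 and -0.50 at D3. All D3 lungs exceeded all D1 lungs, and D3 mouse 19 stood well above the other D3 lungs. The difference was 1.74 (SE 0.38, limma adjusted p = 0.0448), or 1.32 without mouse 19, and it was not called in 8 of the 10 fits that left out 1 mouse, namely all but those without D3 mouse 19 or 20 (adjusted p up to 0.103). Of 5 further probes that the array lists as NEAT1, all between 1.61 and 1.91, 2 were called. Malat1, a long RNA of nuclear speckles, was at 0.52 (SE 0.15, limma adjusted p = 0.0935) by the probe matched to its symbol, whereas 3 probes listed under its alias NEAT2 were called at 0.59, 0.59 and 0.67. All 6 tested members of the nuclear long RNA list but Kcnq1ot1 were higher at D3, with a median of 0.38. Of these 6, 1 was called (0.72% of all genes were called higher).

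Other increases among the 12 largest had no single role. Clec2d, a ligand of an inhibitory natural killer cell receptor, read 2.15, 1.59, 2.20, 1.49 and 1.66 at D1 and 3.14, 2.87, 3.38, 3.22 and 2.59 at D3 (difference 1.22, SE 0.18, limma adjusted p = 0.0145). Rgs11, a regulator of G protein signalling, was within -1.85 and -1.75 in every D1 lung and between -0.99 and 0.29 at D3, again highest in mouse 19 (difference 1.16, limma adjusted p = 0.0236). Sap25, a component of the Sin3 corepressor complex, followed at 1.12, and Pdia2, a protein disulphide isomerase, at 1.10 (limma adjusted p = 0.021 and 0.0141). T2 rose by 0.96 with an adjusted p of 0.00389 (limma), the Cy3 difference of its probe being -0.33 with an adjusted p of 1, and Mapk8ip3, a JNK scaffold, by 0.90 (0.0324), its second probe being at 0.33. Rgs11 and Sap25 lost their calls if either D1 mouse 9 or D3 mouse 18 was left out (limma adjusted p up to 0.0647 and 0.0564), and Mapk8ip3 in 6 of the 10 fits (0.0871 at most).

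**Figure D2:**
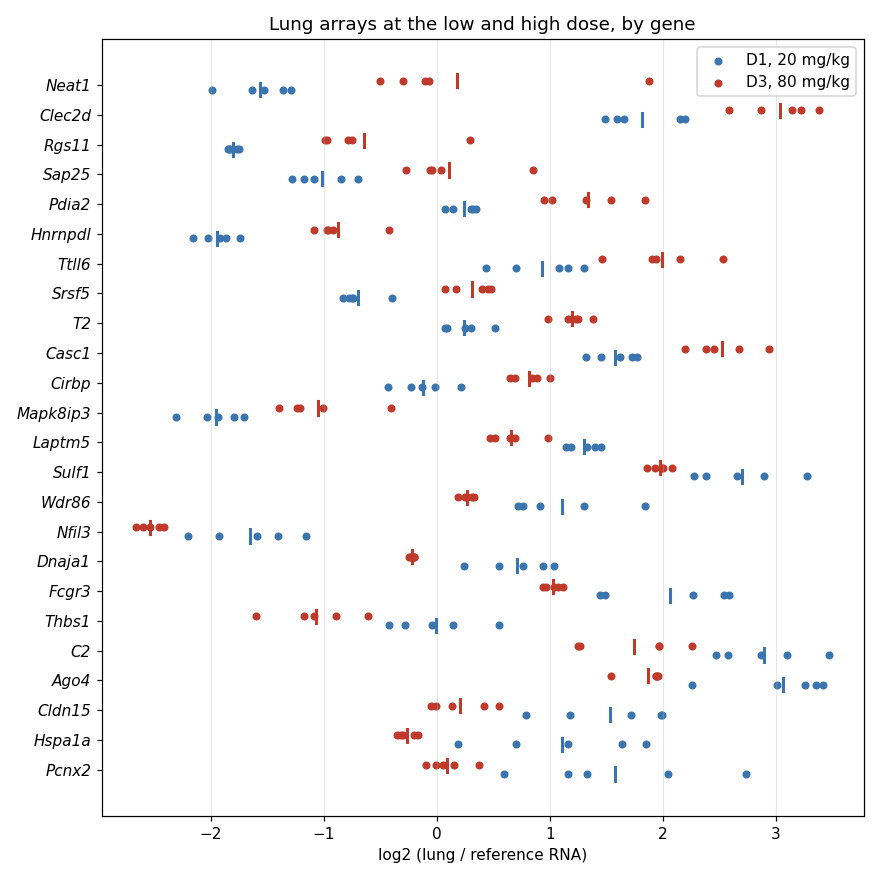
Log2 ratio of lung to reference RNA (horizontal) in each of the 5 lungs at 20 mg/kg (blue) and 5 at 80 mg/kg (red) for the 12 largest increases and 12 largest decreases whose groups did not overlap, with vertical ticks at the group means. Neat1 has one high lung at 80 mg/kg (1.88), and the D1 lungs of Pcnx2 spread from 0.59 to 2.74.

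Of the 15 tested clock output genes 1 was called, higher at D3 (0.72% of all genes were called higher). All 15 tested output and repressor genes had a positive difference, with a median of 0.61 against 0.03 for all genes. The called gene was Per3, a period gene, with log2 ratios of 0.14, -0.24, 0.72, -0.01 and 0.09 at D1 and 0.77, 0.88, 0.65, 1.23 and 1.14 at D3. D1 mouse 8 overlapped the D3 range, and the difference was 0.79 (SE 0.17, limma adjusted p = 0.0425). The Per3 promoter is shown because it carries the D-box, TTATGTAA, 2 times within 250 bases, in capitals below (RefSeq, GRCm38.p6, chr4:151044666-151044915, minus strand, printed toward the gene). That motif, searched on both strands, stood in 0.817% of the 32817 windows and, counted by gene, in 1 of the 12 output genes that had a window.
Per3: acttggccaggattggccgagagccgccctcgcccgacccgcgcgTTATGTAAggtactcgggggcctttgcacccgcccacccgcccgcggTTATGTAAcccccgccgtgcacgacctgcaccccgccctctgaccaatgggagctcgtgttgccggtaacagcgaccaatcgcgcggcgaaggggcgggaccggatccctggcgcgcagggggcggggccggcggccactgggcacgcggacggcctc

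Dbp, a D-box activator, read 0.68, -0.02, 1.74, 1.14 and 1.21 at D1 and 1.72, 2.11, 1.88, 1.85 and 2.68 at D3. D1 mouse 8 overlapped the D3 lungs (difference 1.10, SE 0.29, limma adjusted p = 0.0788). The other D-box activators Hlf and Tef were at 0.81 and 0.77 (limma adjusted p = 0.0891 and 0.0865), and Per1 and Per2 at 0.78 and 0.75 (0.303 and 0.12). Nr1d1, which encodes REV-ERBα, was at 0.08 (SE 0.19, limma adjusted p = 0.865). Nfil3, the repressor that competes for the D-box, fell from -1.93, -1.16, -1.59, -1.41 and -2.20 at D1 to -2.42, -2.66, -2.46, -2.60 and -2.54 at D3. The groups did not overlap, and the difference was -0.88 (SE 0.17, limma adjusted p = 0.03). Arntl, the activator also called BMAL1, was at -0.64 (SE 0.26, limma adjusted p = 0.229), and its partner Clock at -0.32 (0.235).

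With the slide as a block, Per1 and Per2 were also called (1.07 and 0.91, limma adjusted p = 0.0479 and 0.0102). Per3 lost its call without any one mouse other than D1 mouse 8, in whose absence the difference was 0.94, and with the authors' table (limma adjusted p = 0.0513). Nfil3 lost it without D1 mouse 8 or 9 or D3 mouse 16, 17, 18 or 19 (limma adjusted p up to 0.0843). Across the list, the mean log2 ratio of the output genes, each centred on its own mean over the 10 arrays, ran from -0.61 to 0.25 in D1 lungs and from 0.05 to 0.52 in D3 lungs, so the groups overlapped. The labels used here give no time of day for the dissections.

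**Figure D3:**
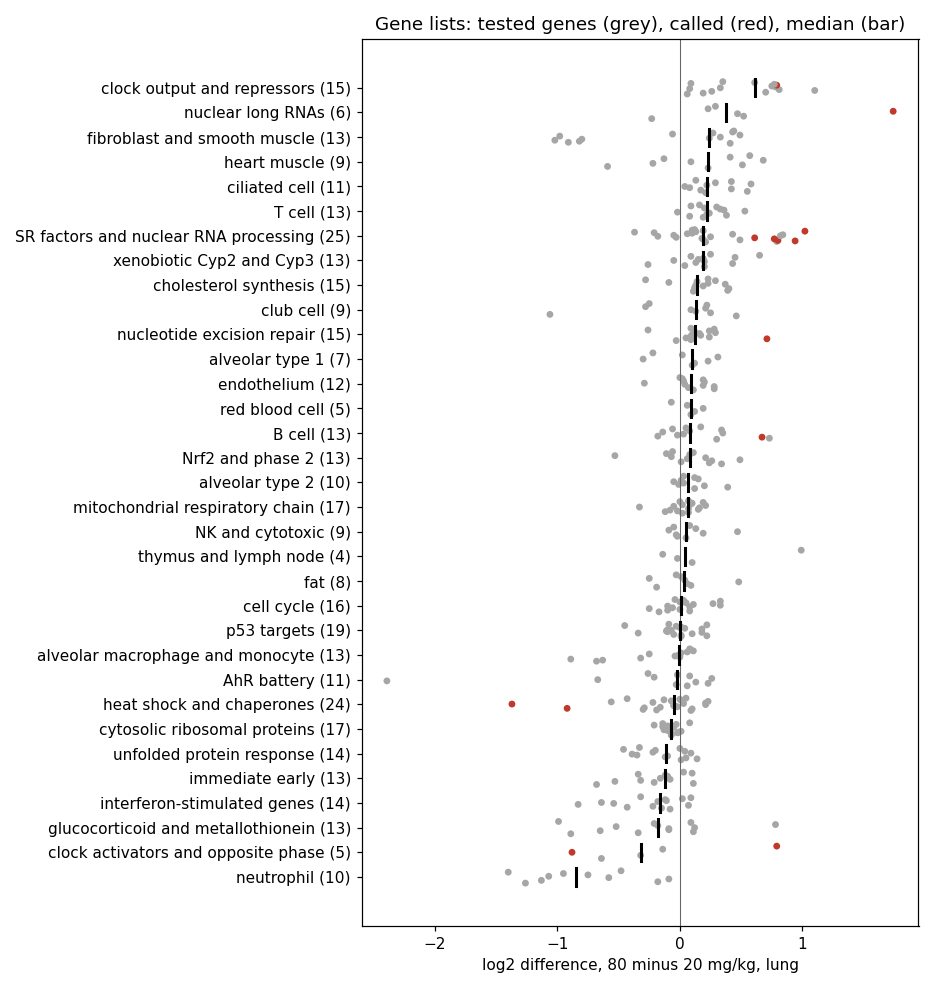
Log2 difference between 80 and 20 mg/kg in lung (horizontal) for each tested gene of 33 lists (rows, number tested in brackets; the mesothelium and motile cilium lists are not drawn), with called genes in red, the others in grey and a black bar at the median. Of the lists drawn, clock output has the highest median (0.61) and neutrophil the lowest (-0.85), and called genes appear in 7.

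Among genes of the AhR response and of DNA damage, Ddb2 alone was called. Of 11 tested AhR battery genes none was called, and the median was -0.02. Cyp1a1 varied most between lungs, at 0.73, 3.92, 6.06, 6.87 and 0.89 in D1 mice 6 to 10 and at 1.71, 1.86, 0.79, 1.44 and 0.74 in D3 mice 16 to 20. D1 mice 7, 8 and 9 exceeded every D3 lung, while D1 mice 6 and 10 lay among them, and the difference of -2.39 had an SE of 1.07 (limma adjusted p = 0.262). Cyp1b1 was high in the same mice, at -0.72, 1.25, 0.37, 0.58 and -1.30 at D1 against -1.01 to -0.14 at D3 (difference -0.67, SE 0.41, limma adjusted p = 0.406). Ahrr, the AhR repressor, was at -0.03 and Tiparp, another AhR target, at -0.02 (95% interval -0.19 to 0.16). In the forestomach of the D1 mice the order was another one, with Cyp1a1 at 7.07 in mouse 6 and at 1.64 in mouse 9. In the livers of the D1 and D3 mice, Cyp1a1 was well above background only in D1 mouse 8.

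None of 19 tested p53 targets was called and their median was 0. Cdkn1a, the p21 cell cycle inhibitor, was at -0.34 (SE 0.14, limma adjusted p = 0.224) and Mdm2, the ligase that degrades p53, at 0.18 (SE 0.07, adjusted p = 0.226, limma). Among 15 nucleotide excision repair genes 1 was called higher (0.72% of all genes were), and the list median was 0.12. The called gene was Ddb2, the damage sensor of global genome repair. Ddb2 read -1.63, -1.62, -1.54, -1.70 and -1.26 at D1 and -0.83, -1.01, -0.92, -0.46 and -0.96 at D3, without overlap (difference 0.71, SE 0.12, limma adjusted p = 0.0194, or 0.0613 without D1 mouse 9). Xpc, its partner in damage recognition, was at 0.09 (limma adjusted p = 0.64). Nqo1, an antioxidant enzyme under NRF2, was at 0.08 and the Nrf2 list had a median of 0.08 with none of 13 called.

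The called decreases included Upk3b, Cldn15 and Has1, genes known from the mesothelium, the cell layer of the pleura. Upk3b, a uroplakin of mesothelial cells, read -0.14, 1.14, -0.18, 0.72 and 1.23 at D1 and -2.11, -1.94, -1.50, -1.29 and -0.16 at D3. Only D3 mouse 20 reached the D1 range, and Upk3b had the largest decrease of the called genes, -1.95 (SE 0.38, limma adjusted p = 0.0333). Cldn15, a claudin of tight junctions, read 0.79, 1.98, 1.18, 1.72 and 1.99 at D1 and -0.01, 0.13, -0.05, 0.42 and 0.55 at D3, without overlap (difference -1.32, SE 0.23, limma adjusted p = 0.0211). Has1, a hyaluronan synthase, was well above background in all 5 D1 lungs and in 0 of 5 D3 lungs. It thus entered the test only through the group where it was high. Its mean Cy5 signal was at least 2.03-fold lower at D3. The test of its log2 ratio gave -1.23 (SE 0.26, limma adjusted p = 0.0443). Upk3b and Has1 were singled out after their values were seen. A mesothelium list, also drawn up after the values were seen, had 14 of 15 tested genes lower at D3, with a median of -0.94. The 3 called (0.12% of all genes were called lower) were Upk3b, Cldn15 and Has1 themselves, so their count is no added result. Another member, Bnc1 (-0.8), was also dim at D3. Msln (mesothelin) and Wt1, defining markers of this layer, were at -1.58 and -2.47 (limma adjusted p = 0.066 and 0.0685), and the keratins Krt8, Krt18 and Krt19 at -0.09, 0.10 and -0.10. The mean centred log2 ratio of the list was -0.13 to 1.07 at D1, -0.70 to -0.03 at D3 and -0.58 to 1.16 in the vehicle lungs. How much pleura each section held was not measured, and its part in these decreases was not tested.

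The other large decreases were of mixed function. Ago4, an Argonaute protein of small RNA silencing, read 3.36, 3.01, 2.26, 3.42 and 3.26 at D1 and 1.94, 1.96, 1.94, 1.54 and 1.95 at D3 by its brightest probe (difference -1.20, SE 0.20, limma adjusted p = 0.0186). Its second probe was at 0.21, so the probes of this gene disagree. Thbs1, the matrix glycoprotein thrombospondin-1, read 0.14, 0.55, -0.42, -0.28 and -0.04 at D1 and -0.89, -1.09, -0.61, -1.60 and -1.18 at D3 (difference -1.07, SE 0.20, limma adjusted p = 0.03). Sulf1, a heparan sulphate sulphatase, fell by 0.73 (limma adjusted p = 0.0496), its second probe being at -0.22. C2, a complement protease, fell by 1.16 (limma adjusted p = 0.0358). Fcgr3, a low-affinity IgG receptor of myeloid cells, fell by 1.04 (0.0401) and Laptm5, a lysosomal membrane protein of blood cells, by 0.64 (0.018). Fcgr3 was high in D1 mice 7, 8 and 9 (2.59, 2.27 and 2.54) and lower in D1 mice 6 and 10 (1.49 and 1.44). Mice 7, 8 and 9 were also the D1 mice with high Cyp1a1, a link seen afterwards and not tested. Among D2 lungs mouse 12 had the highest Cyp1a1 (3.40) with Fcgr3 at 1.22. D2 mouse 14 had the highest Fcgr3 (1.57) with Cyp1a1 at 0.78. Pcnx2 and Wdr86, which were well above background in only 3 of 5 D3 lungs, fell by 1.48 and 0.84 (limma adjusted p = 0.045 and 0.0469).

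Several of these calls lay near the threshold of 0.05, and leaving out any one of several mice ended them. With the slide as a block C2, Fcgr3, Pcnx2 and Wdr86 were no longer called (limma adjusted p = 0.0517, 0.0579, 0.0547 and 0.0672). Leaving out 1 mouse ended the call of Sulf1 in 9 of 10 fits, of Fcgr3, Pcnx2, Wdr86 and Has1 in 8, of C2 and Upk3b in 7, of Thbs1 in 5 and of Cldn15 in 3. Ago4 and Laptm5 lost theirs only without D1 mouse 9 (adjusted p = 0.0567 and 0.0576, limma). Sulf1 was also lost with the authors' table (limma adjusted p = 0.0578).

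The increases also included genes of motile cilia, the beating axonemes of airway ciliated cells. Casc1, an axonemal dynein component, read 1.62, 1.32, 1.77, 1.73 and 1.45 at D1 and 2.94, 2.20, 2.45, 2.67 and 2.38 at D3 (difference 0.95, SE 0.14, limma adjusted p = 0.0145). Ttll6, a tubulin polyglutamylase, rose by 1.06 (SE 0.20, limma adjusted p = 0.0306), Dnah10, a dynein heavy chain, by 0.79 (0.0197) and Zmynd10, a dynein assembly factor, by 0.72 (0.044). In a motile cilium list drawn up after these values were seen, 7 of 25 tested genes were called, all higher (0.72% of all genes were called higher), and the median was 0.44. Casc1, Ttll6, Dnah10 and Zmynd10 are among these 7, so the count is no added result. In the ciliated cell list 11 of 11 tested genes were higher with a median of 0.22, but none was called. Foxj1, the master regulator of motile cilia, was at 0.04 (limma adjusted p = 0.923) and Dnah5 at 0.42 (0.415). Casc1 kept its call without any one mouse. Ttll6 was not called in 7 of 10 such fits, and Zmynd10 in 9.

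Markers of blood and other cells moved less evenly. The 13 tested B cell genes had a median of 0.08, 9 of them being higher and 4 lower at D3. The B cell receptor components Cd79a and Cd79b were at 0.03 and 0.35, and Ms4a1 (CD20) at -0.06. Btla, an inhibitory receptor of lymphocytes, was at 0.73 (SE 0.24, limma adjusted p = 0.143). None of 13 T cell genes was called, with a median of 0.22. D3 mouse 17 alone had a high T cell level (mean centred log2 ratio 1.25, against -0.21 to -0.08 in the other D3 lungs), and without it the median was -0.05. All 10 neutrophil genes were lower at D3, with a median of -0.85 and none called. D1 mouse 8 alone had a high neutrophil level (mean centred log2 ratio 1.95, against -0.25 to 0.13 in the other D1 lungs and -0.68 to -0.07 at D3), and without it the median was -0.40. Medians of the alveolar type 1 and type 2, club cell, endothelial and macrophage lists lay between -0.01 and 0.13, with no gene called. Heart muscle and fat genes, which could enter at dissection, had medians of 0.23 and 0.03 and no calls, though the mean level of the heart muscle list ranged from -2.02 to 1.60 among D3 lungs.

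**Figure D4:**
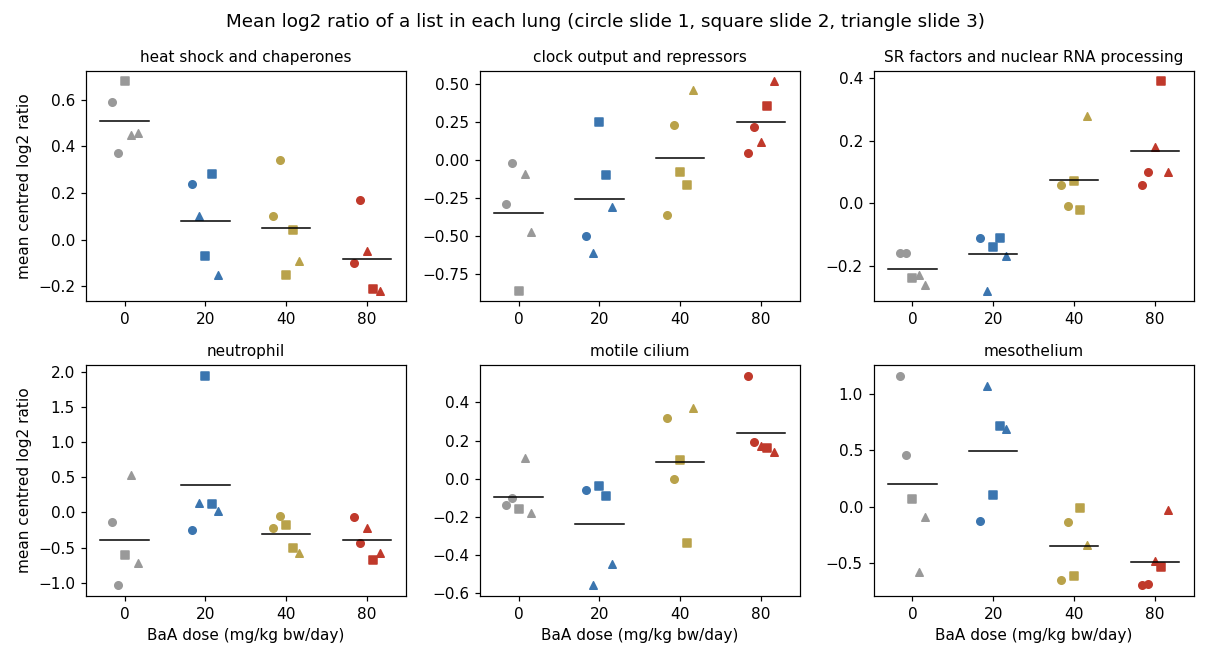
Mean centred log2 ratio of 6 gene lists (vertical) in each of 20 lungs by BaA dose (horizontal), with marker shape for the slide and a line at the mean of 5 lungs. At 80 mg/kg the motile cilium list lies at 0.14 to 0.54, above all lungs at 20 mg/kg, while the neutrophil list has one high lung at 20 mg/kg (1.95). The motile cilium and mesothelium lists were drawn up after the values were seen, so the separation of the motile cilium list is no added result. The ciliated cell list, one of the main lists and not drawn here, overlapped, at -0.58 to 0.14 at 20 mg/kg and -0.01 to 0.58 at 80 mg/kg.

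The D2 lungs, which took no part in the fit, fell between. For 101 of the 102 genes called higher and for all 17 called lower the D2 mean lay between those of D1 and D3, at a median of 68.9% and 73.5% of the way from D1 to D3. The D0 mean lay on the far side of D1 from D3 for 52 of the 102 genes called higher and 5 of the 17 called lower. Srsf5 (-1.21 at D0, -0.70 at D1) and Cirbp (-0.48 and -0.12) were among those that did, whereas for Neat1 (-1.42 and -1.56) and Clec2d (1.84 and 1.82) the D0 mean was above that of D1. These counts share the D1 and D3 arrays with the calls and are a description. All called genes had D3 means beyond D0 in the direction of the call (102 of 102 and 17 of 17).

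Whether the difference between the doses was itself different in lung was tested against the liver (9 arrays, D3 mouse 20 not analysed here) and the forestomach (10 arrays) of the same mice. Of 20088 probes tested in lung and liver 11 were called (0.0548%), 8 more positive in lung and 3 more negative, and an unadjusted p under 0.05 was found for 1963. Hnrnpdl was at 1.07 in lung and -0.14 in liver, a difference of 1.21 (limma adjusted p = 0.0233). Dnaja1 was at -0.92 in lung and 0.25 in liver, a difference of -1.17 (adjusted p = 0.0233, limma). Pan2, a deadenylase subunit, was more positive in lung by 0.73 and Acrbp, an acrosin-binding protein, by 0.88 (limma adjusted p = 0.0367 and 0.0233). Both were chosen after their values were seen. Srsf5 showed no such contrast, rising by 1.16 in liver (limma adjusted p = 0.000391), with a lung minus liver difference of -0.15 (adjusted p = 0.85, limma). With the mouse as a block in the paired fit, 19 probes were called. In the fit without that block, the 11 calls became 0 without D1 mouse 9 or without D3 mouse 18.

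Against forestomach, 2 of 26769 probes were called (0.00747%), both more negative in lung. One was that of Krt31, a hair keratin, at -1.43 (limma adjusted p = 0.00124), which was 1.25 higher at D3 in forestomach. None of the genes called in lung differed from forestomach by this test (0 of 106 tested in both), although the forestomach differences were smaller, with a median size of 0.14 against 0.73 for the same genes in lung. Hspa8 was at -0.57 in forestomach (limma adjusted p = 0.143) and -0.56 in lung. In the liver the median size was 0.17 for the 83 called lung genes tested there, and 70 of these had the same sign as in lung. With the mouse as a block 7 probes were called against forestomach, and with the slide as a block 21.

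**Figure D5:**
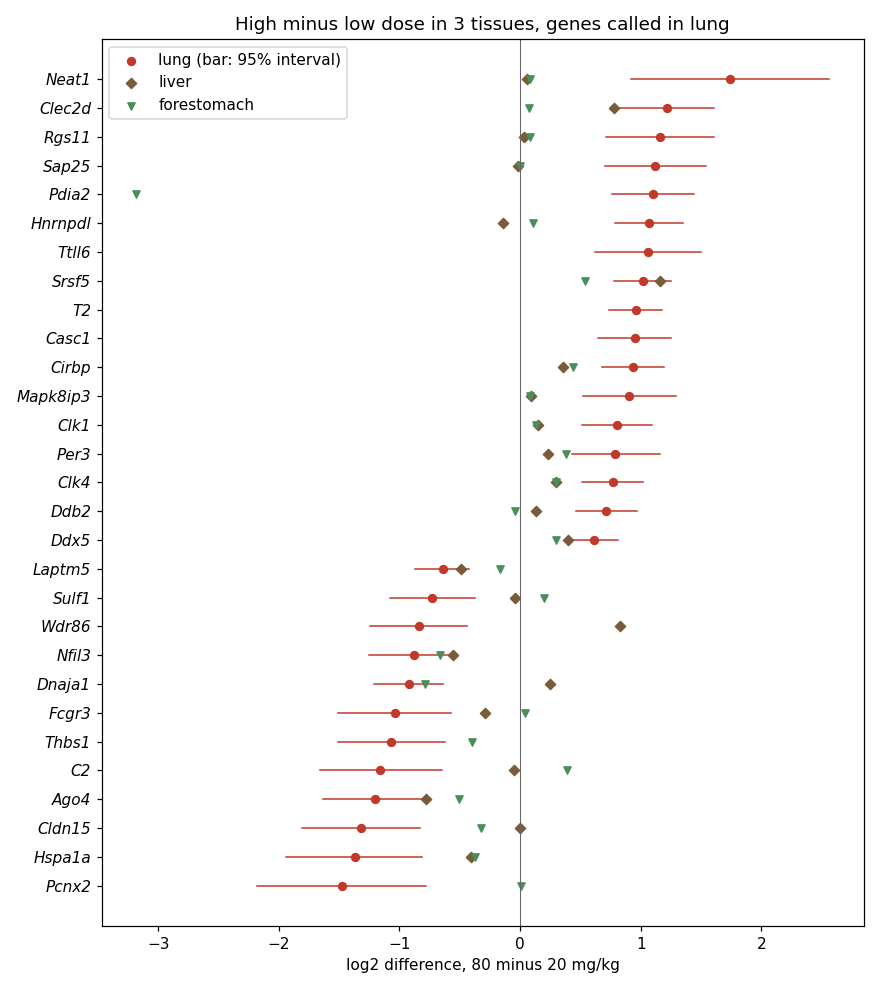
Log2 difference between 80 and 20 mg/kg (horizontal) for 29 called genes (rows) in lung (red, with 95% interval), liver (brown diamonds) and forestomach (green triangles). Most liver and forestomach values lie nearer 0 than those of lung, and Srsf5 in liver (1.16) is beside its lung value, while Pdia2 in forestomach is at -3.18 (limma adjusted p = 0.75).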

How the data were processed

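Lung RNA of 5 D1 and 5 D3 mice was hybridised to Agilent 2-colour mouse arrays (62976 spots, 55681 gene probes) against reference RNA, without dye swaps. The authors deposited scanner files of spot intensity, made with Feature Extraction 10.7.3.1 per the file headers. The authors used median signals without background subtraction and deposited log2 ratios normalised by LOWESS, which served here as an alternative (r with the ratios used here 0.996 to 0.998 per lung array). Median signals were loess-normalised within each array after leaving out outlier spots (0.481%), and 26413 probes were matched to 20018 RefSeq symbols (GRCm38.p6). Probes entered the test where 4 or more of the 10 arrays were flagged well above background in Cy5. Groups were compared with limma 3.58.1 in R 4.3.3 with the data.table package (1.17.8), two-sided, in place of the MAANOVA of the study, with its thresholds of 0.05 and 1.5-fold. The procedure was tested on simulated data. The number of arrays limits the precision.

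Named genes were the 12 largest increases and 12 largest decreases among called genes whose groups did not overlap, every called gene of a list (results for 2 of these are not reported here), and a fixed set of AhR, p53, heat shock, clock and splicing genes. Upk3b, Has1, Pan2, Acrbp, Hlf, Tef, Xpc and further list members were added after their values were seen. The members and lists were chosen with earlier results of these data known. A gene was represented by its brightest tested probe. Mice numbered alike across tissues are the same animal. Their deviations from group means correlated with r of -0.01 to 0.2 between lung and liver and 0.02 to 0.22 between lung and forestomach. Alternatives were the authors' table, median centring, normexp, processed signals, Cy5 alone, slide block, more groups in the fit, other filters, array weights, and leaving out each mouse. Liver and forestomach D1 and D3 arrays entered only the tissue comparison.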

Additional observations from a re-analysis of the deposited data

Results flagged for a closer look

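In 7 of 98 groups of 5 lungs tested for a sample far from the others, 1 lung stood apart, where chance alone gives about 5. The gap to the nearest lung, as a share of the whole range of the group, was 0.951 for Ago4 at D3 (mouse 19 at 1.54, the nearest at 1.94), 0.752 for Hnrnpdl (mouse 19 at -0.42, nearest -0.92), 0.819 for Neat1 (mouse 19 at 1.88, nearest -0.07), 0.809 for Rgs11 (mouse 19 at 0.29, nearest -0.75) and 0.727 for Sap25 (mouse 19 at 0.85, nearest 0.04). The same D3 lung, mouse 19, thus gave all 5 of these values. At D1 the shares were 0.713 for Nr1d1 (mouse 7 at 0.85, nearest 1.55) and 0.788 for Srsf5 (mouse 10 at -0.40, nearest -0.74). Lung and liver differed in the dose difference of Dnaja1 by -1.17 and of Hnrnpdl by 1.21 in limma's interaction test (adjusted p = 0.0233 for each).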

How the results depend on the processing

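The 199 calls (163 higher, 36 lower) became 0 (0 and 0) with median centring, where every named gene kept its sign but had an adjusted p of 1 (limma), and 112 (86 higher) with the Cy5 channel alone. They became 472 (380 and 92) with no minimum fold change and 299 with 20 lung arrays in the fit. The lower calls became 76 with 15 or 20 arrays in the fit and 58 with array weights. Median centring together with the slide block, an alternative chosen after seeing the data, gave 199 (167 and 32). Without 1 mouse the counts were 58 to 236 in all, 51 to 187 higher and 7 to 49 lower, lowest without D1 mouse 9. The total was also over 1.5 times smaller without D1 mouse 7 (110) or D3 mouse 16 (131), 17 (100), 18 (88) or 19 (126). The 11 calls of lung minus liver became 19 with the mouse as a replicate block and 7 with the slide as a block, and 0 to 17 without 1 mouse. The 2 calls of lung minus forestomach became 7 with the mouse as a block, 21 with the slide as a block, and 1 to 3 without 1 mouse. Of the 31 called named genes, none reversed sign under the alternatives run for them. Agilent's processed signals ended the call of 12, the Cy5 channel alone that of 11, the slide block that of 5, normexp that of 2 and the authors' table that of 2. Signal over background limits Pcnx2, Wdr86 and Has1, which were dim at D3, and 5 mice a group limit the rest.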

Other observations

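None of the lists not yet described held a called gene. Interferon-stimulated genes, which answer viral and nucleic acid signals, were lower at D3 for 11 of 14 genes, with a median of -0.16 and Irf7, their inducible regulator, at -0.83 (limma adjusted p = 0.267). Within slide 3 their median was -1.20, and within slides 1 and 2 it was 0.27 and 0.30. Cholesterol synthesis genes were higher for 13 of 15, with a median of 0.14, and immediate early genes lower for 10 of 13, with a median of -0.12. Among fibroblast genes the collagens Col3a1, Col1a1 and Col1a2 were at -1.02, -0.91 and -0.82 (limma adjusted p = 0.376, 0.453 and 0.406), with Col3a1 at 2.78 in D1 mouse 7 and between -0.88 and 0.99 in the other D1 lungs, whereas the smooth muscle genes Myh11, Tagln and Acta2 were at 0.49, 0.43 and 0.41 (0.03, 0.124 and 0.0774), none past the fold threshold. Cell cycle, unfolded protein response, glucocorticoid and metallothionein, xenobiotic Cyp2 and Cyp3, cytosolic ribosomal protein and respiratory chain genes had medians of 0.01, -0.11, -0.18, 0.19, -0.07 and 0.07. Natural killer, red blood cell and thymus lists had medians of 0.05, 0.09 and 0.04.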
